A study of Mus musculus with 24 samples.

Results

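The genes described here are 3 cyclin-dependent kinase inhibitors (Cdkn1a, Cdkn1b and Cdkn1c), 3 growth arrest and DNA damage genes (Gadd45a, Gadd45b and Gadd45g), Trp53, which encodes p53, and Mdm2, the p53 ubiquitin ligase, in mouse striatum after morphine. Every probe that the platform annotation gives to these 8 genes was taken. These were 16 of 45281 probes, for 7 of the 8 genes: 3 each for Cdkn1a, Cdkn1b and Mdm2, 2 each for Gadd45a, Gadd45b and Gadd45g, and 1 for Cdkn1c. The annotation used here lists no probe under the symbol Trp53, and its level was not analysed here. Cdkn1a was chosen by its measured log2 difference between injections in saccharin drinkers, and the other 7 genes were listed by name. Values in that comparison, including any adjusted p, are therefore a description.

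Cdkn1a encodes p21, which binds and blocks the cyclin-dependent kinases that drive a cell into DNA replication, and Cdkn1b (p27) and Cdkn1c (p57) encode its relatives. Cdkn1a is a textbook target of p53, and it is also induced without p53 by other factors, among them the glucocorticoid receptor. The Gadd45 proteins are small stress proteins that act on kinase signalling, on DNA repair and, in neurons, on DNA demethylation. Mdm2 is induced by p53 and marks it for degradation. In adult brain most neurons no longer divide, and p21 and p27 are also found in postmitotic cells.

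The mice were C57BL/6J, 6 to 10 weeks old, with no transgene or deletion given in the labels. There were 4 groups of 6 animals: saccharin drinkers injected with saline (10 ml/kg) or with morphine (20 mg/kg), and morphine drinkers given the same 2 injections. All were killed 4 h after the injection, and each array held striatal RNA of 1 animal. Each of 6 chips carried 1 array of every group. Values are normalised log2 intensities, which can be compared between arrays for 1 probe but not between probes.

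Striatal markers were present: 8 genes of medium spiny neurons averaged log2 intensities of 11.92 to 12.93 on 22 of the 24 arrays. On 2 arrays of morphine drinkers on chip 2, replicate 31 (morphine injection) and replicate 32 (saline injection), that mean was 9.06 and 9.16, while 4 genes of cortical projection neurons averaged 12.35 and 12.13 against 8.64 to 11.87 on the other arrays. Both arrays therefore go against the striatal label, and the main fitted differences that use them are given with and without them. Median raw intensity ran from 164 to 543 per array and was lowest on chip 6 (164 to 177).

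The Cdkn1a promoter is shown first because it is where p53 acts on this gene. RefSeq gives Cdkn1a (gene ID 12575, chromosome 17, bases 29090979 to 29100722 of GRCm38.p6) 2 start sites. The 250 bases before each are printed 5′ to 3′ on the + strand, at chr17:29090729-29090978 and chr17:29093519-29093768. Capitals mark p53 half-sites before the first start site and GC boxes (GGGCGG, the site of Sp1-type factors) before the second.
Cdkn1a, start site 1: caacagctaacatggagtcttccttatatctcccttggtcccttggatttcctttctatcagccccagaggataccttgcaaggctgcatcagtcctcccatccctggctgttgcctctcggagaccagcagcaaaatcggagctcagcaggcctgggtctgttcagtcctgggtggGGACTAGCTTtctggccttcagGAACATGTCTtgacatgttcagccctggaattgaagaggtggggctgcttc
Cdkn1a, start site 2: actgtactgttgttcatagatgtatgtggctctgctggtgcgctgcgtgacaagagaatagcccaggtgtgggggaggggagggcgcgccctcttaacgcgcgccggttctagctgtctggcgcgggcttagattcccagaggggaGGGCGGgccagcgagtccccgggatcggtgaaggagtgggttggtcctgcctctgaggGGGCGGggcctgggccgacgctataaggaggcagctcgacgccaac

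The window before the first start site held 2 p53 half-sites, at positions -73 and -51 from the start, and no GC box, whereas the second held 2 GC boxes and no p53 half-site. Only full matches to a motif were counted. Near matches, such as the bases directly after the half-site at -51, were not marked. Single p53 half-sites also lay before Gadd45a, Trp53 and Mdm2. They are printed within 30 bases, with the half-site in capitals, to show where the same motif lies before other listed genes. The Gadd45a window lies at chr6:67037428-67037457 on the - strand (half-site at -40), that of Trp53 at chr11:69580274-69580303 on the + strand (at -75), and that of Mdm2 at chr10:117710925-117710954 on the - strand (at -186).
Gadd45a: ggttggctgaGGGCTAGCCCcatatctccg
Trp53: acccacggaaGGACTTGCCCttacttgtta
Mdm2: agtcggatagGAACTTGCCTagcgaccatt

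RefSeq promoters were matched for 7 of the 8 genes, the exception being Cdkn1c. In windows from 250 bases before to 50 bases after the start, searched on both strands, 4 of the 7 genes held a p53 half-site, against 8.36% of all 32851 promoters of that length. The 7 genes have 8 windows, as Cdkn1a has 2, and each motif lay in as many windows as genes. Trp53 and targets of p53 were put on the list of genes, so these shares are a description. A GC box was found in 5 of 7 genes and 35.7% of promoters, and a TATA box (TATAAA) in 3 of 7 and 13.6%. A FoxO site (GTAAACA) was found in Mdm2 alone of the 7 and in 3.65% of promoters. The glucocorticoid half-site AGAACA lay in none of the 7 genes and in 19.0% of promoters, and 2 palindromes searched by name were also in none of the 7, the full glucocorticoid response element (in 0.00913% of promoters) and the cyclic AMP response element (in 1.79%). A match is a run of letters and not a measured site, and other parts of these genes were not searched.

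Cdkn1a was higher after morphine than after saline in both kinds of drinkers and with all 3 of its probes. On its brightest probe, the saccharin drinkers given saline had a lowest, median and highest log2 intensity of 9.22, 9.67 and 10.68. After morphine the 3 values were 10.62, 10.94 and 11.22. The groups met only through the highest saline array, which was on chip 6, and every morphine array was above the other 5 saline arrays. In morphine drinkers the values were 8.96, 9.28 and 10.35 after saline. They were 9.41, 10.26 and 11.22 after morphine, where the spread was wide (SD 0.712, n = 6) and the 2 groups overlapped. The arrays of chip 6 were the highest of their group in both saline groups and in the morphine drinkers given morphine; the part of the chip in these levels was not tested, and chip is a term of the fit.

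**Figure D1:**
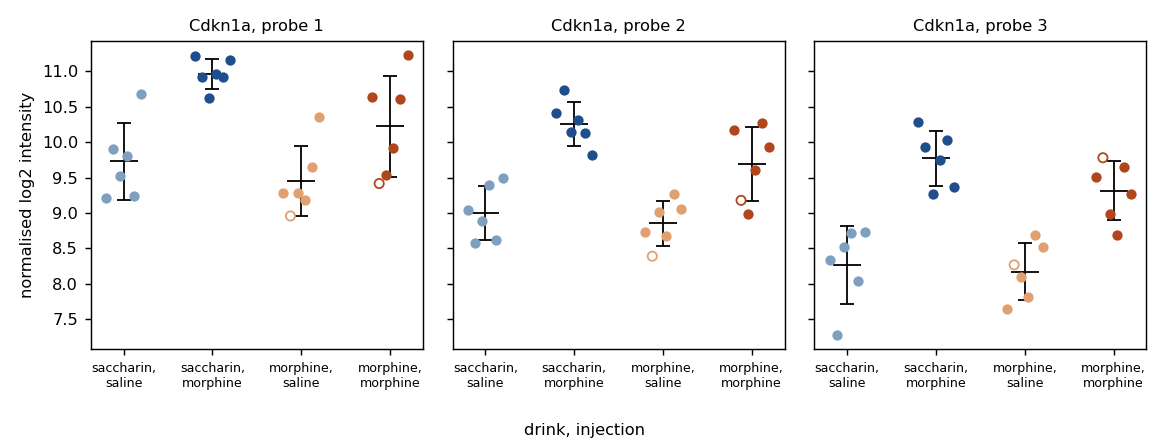
Normalised log2 intensity of the 3 Cdkn1a probes on each of 24 arrays, by drink and injection (6 arrays a group; bars are mean ± SD; open circles are the 2 chip 2 arrays low in medium spiny genes). The morphine-injected groups lie above the saline-injected groups on each probe, with overlap on probe 1 in both drinkers and on probe 2 in morphine drinkers.

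The 2 further probes gave the same order of groups. On probe 2 the saccharin drinkers ran from 8.57 to 9.49 after saline (median 8.96) and from 9.82 to 10.74 after morphine (median 10.23), without overlap. The morphine drinkers ran from 8.39 to 9.27 (median 8.87) and from 8.99 to 10.27 (median 9.76). On probe 3 the ranges were 7.27 to 8.73 and 9.27 to 10.28 in saccharin drinkers, with medians of 8.42 and 9.84. In morphine drinkers they were 7.65 to 8.68 and 8.69 to 9.78, with medians of 8.18 and 9.38, and the groups only just failed to touch. Non-overlap in that direction was found for 0.338% of 22499 probes in saccharin drinkers and 0.213% in morphine drinkers. With chip means removed, the 3 probes followed each other over the 24 arrays with Pearson r of 0.935 (probes 1 and 2), 0.878 (2 and 3) and 0.795 (1 and 3), values that include the group differences.

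In saccharin drinkers the log2 difference between injections was 1.24 (SE 0.211), a 2.36-fold higher intensity, and it was positive on 6 of 6 chips (lowest 0.47). Probes 2 and 3 gave 1.26 (SE 0.224) and 1.50 (SE 0.260). Cdkn1a was thus the 1 member of 7 past an adjusted p of 0.05 in this comparison, in which 0.371% of 13748 genes passed. That contrast chose the gene, so nothing is read from the count. The call was lost when chip was not a term, when the 2 groups were fitted alone, and when chip 1, 3, 4 or 5 was left out, although the difference stayed between 1.08 and 1.39 over the arrays and chips left out in turn.

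In morphine drinkers, animals that did not enter that comparison, the difference was 0.77 (SE 0.211, 95% interval 0.33 to 1.22), or 1.71-fold. It was positive on 6 of 6 chips (0.26 to 1.36), and an exact two-sided sign-flip test over the 6 chips gave p = 0.0313, the smallest value that test can give. That test was chosen with earlier results of these data known, and it includes chip 2 (0.46), whose pair is replicates 31 and 32. It was not run without that pair, where with fewer chips it could not fall under 0.05. In the limma fit over all genes it did not pass (adjusted p = 0.309) and ranked 78 of 13748 genes. The other probes gave 0.84 (SE 0.224, adjusted p = 0.329 over 22499 probes, higher on 5 of 6 chips) and 1.14 (SE 0.260, adjusted p = 0.209, higher on 6 of 6 chips), or 0.85 and 1.07 without replicates 31 and 32. Replicates 31 and 32 were the lowest arrays of their groups on probe 1 (9.41 and 8.96), whereas replicate 31 was the highest on probe 3 (9.78). Without both arrays the difference on probe 1 was 0.84 (adjusted p = 0.292). With array weights it was 0.83 and passed (adjusted p = 0.0475).

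None of the 7 members passed in morphine drinkers, where 0.0655% of 13748 genes did. An unadjusted p under 0.05 was found for 2 of 7 (Cdkn1a and Mdm2) and for 875 of all genes (6.36%). Without replicates 31 and 32 the unadjusted limma p was 0.000956 for Cdkn1a and 0.139 for Mdm2. The smaller Cdkn1a response in morphine drinkers was not separable from the replicate spread: the interaction was -0.46 (SE 0.298, 95% interval -1.09 to 0.16, limma adjusted p = 0.958) and was negative on 5 of 6 chips. It was -0.40 without replicates 31 and 32. Probes 2 and 3 gave interactions of -0.43 (negative on 3 of 6 chips) and -0.36 (negative on 4 of 6 chips). Their intervals were -1.09 to 0.24 and -1.13 to 0.41. The interactions use the saccharin arrays through which the gene was chosen.

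Cdkn1a was lower in morphine drinkers than in saccharin drinkers by a log2 difference of -0.28 (SE 0.211, limma adjusted p = 0.986) under saline and -0.74 (SE 0.211, adjusted p = 0.868) under morphine. These were -0.17 and -0.57 without replicates 31 and 32. The difference under morphine uses the same saccharin-morphine arrays as the injection comparison above. Probes 2 and 3 gave -0.15 and -0.10 under saline and -0.57 and -0.46 under morphine. Averaged over injections the difference on probe 1 was -0.51 (95% interval -0.82 to -0.20, adjusted p = 0.904), negative on 5 of 6 chips. It was -0.37 without replicates 31 and 32. On probe 2 the averaged difference was -0.36 (95% interval -0.69 to -0.03), or -0.26 without them. On probe 3 it was -0.28 (95% interval -0.66 to 0.11), or -0.42 without them. Through the same 2 arrays, the mean of the medium spiny genes differed between drinks by -0.47 under saline and -0.66 under morphine, against 0.14 and -0.03 without them. Other marker means still differed between drinks without these arrays. The largest under saline were 0.48 for cortical projection neurons and 0.39 for blood, with -0.01 and -0.17 under morphine. The part of these markers in the Cdkn1a differences was not tested. Drinking thus gave no call for Cdkn1a. No gene of 13748 passed in any of the drinking comparisons or in the interaction, where 633 (saline), 758 (morphine), 722 (averaged) and 723 (interaction) had an unadjusted p under 0.05. Of the 7 members, 1 had an unadjusted p under 0.05 in each of the 3 drinking comparisons and 0 in the interaction.

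The order of the Cdkn1a group means was the same on all 3 probes: saccharin drinkers given morphine (10.96 ± 0.213 on probe 1, SD, n = 6), morphine drinkers given morphine (10.22 ± 0.712), saccharin drinkers given saline (9.73 ± 0.546) and morphine drinkers given saline (9.45 ± 0.494). The first and second of these means, and the last 2, did not differ at the threshold (values above), and the middle pair was not compared.

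**Figure D2:**
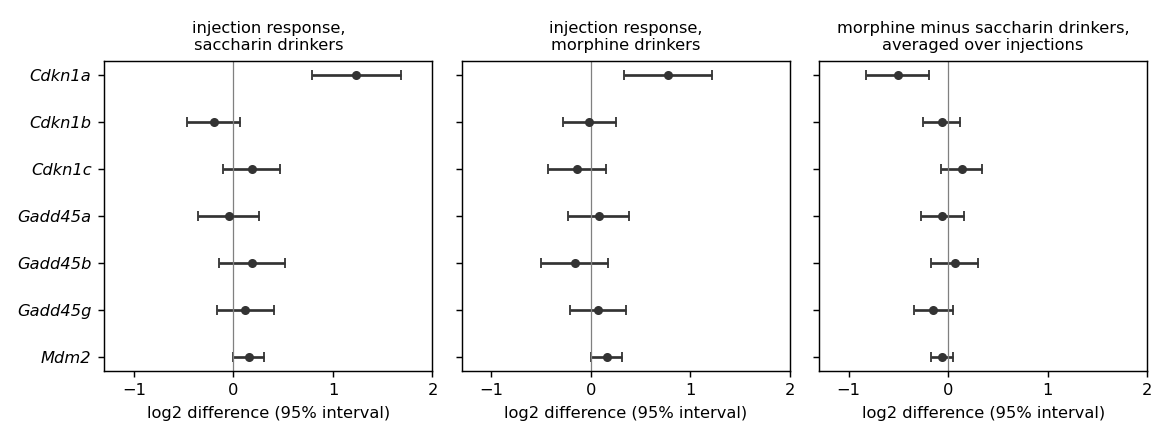
Log2 difference and 95% interval for the brightest probe of 7 genes: morphine minus saline injection in saccharin drinkers, the same in morphine drinkers, and morphine minus saccharin drinkers averaged over injections. Cdkn1a lies at 1.24, 0.77 and -0.51, and the 6 other genes lie within 0.20 of 0 in all 3 panels.

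Cdkn1b, the p27 inhibitor that keeps resting cells out of the cycle, did not pass in any comparison, and its probes disagreed. Its brightest probe lay just above the low-intensity filter of 7.05. In saccharin drinkers it ran from 6.99 to 8.10 (median 7.58) after saline and from 7.02 to 7.80 (median 7.30) after morphine. In morphine drinkers it ran from 7.12 to 7.99 (median 7.31) and from 7.14 to 7.70 (median 7.40). All 4 groups overlapped. The injection difference was -0.20 (95% interval -0.46 to 0.07) in saccharin drinkers and -0.01 (-0.28 to 0.25, limma adjusted p = 0.999) in morphine drinkers, the latter 0.06 without replicates 31 and 32. Its second probe gave 0.17 and 0.74 (95% interval -0.04 to 1.51, adjusted p = 0.821 over the probes, higher on 6 of 6 chips), and followed the first only weakly over the arrays (r = 0.15). Probe 3 had a mean below the filter. No direction is therefore given for Cdkn1b in morphine drinkers.

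Cdkn1c, the p57 inhibitor, an imprinted gene, has 1 probe. After saline and morphine its lowest, median and highest values were 8.86, 9.13 and 10.23 against 9.08, 9.49 and 9.94 in saccharin drinkers. In morphine drinkers they were 9.25, 9.55 and 10.18 against 8.90, 9.61 and 9.65. The groups overlapped throughout. The injection differences were 0.18 (95% interval -0.11 to 0.47) and -0.14 (-0.43 to 0.15, limma adjusted p = 0.945), the latter -0.09 without replicates 31 and 32. Under saline, morphine drinkers lay 0.29 above saccharin drinkers (95% interval 0.00 to 0.58, limma adjusted p = 0.986), a value that was 0.17 without replicates 31 and 32.

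**Figure D3:**
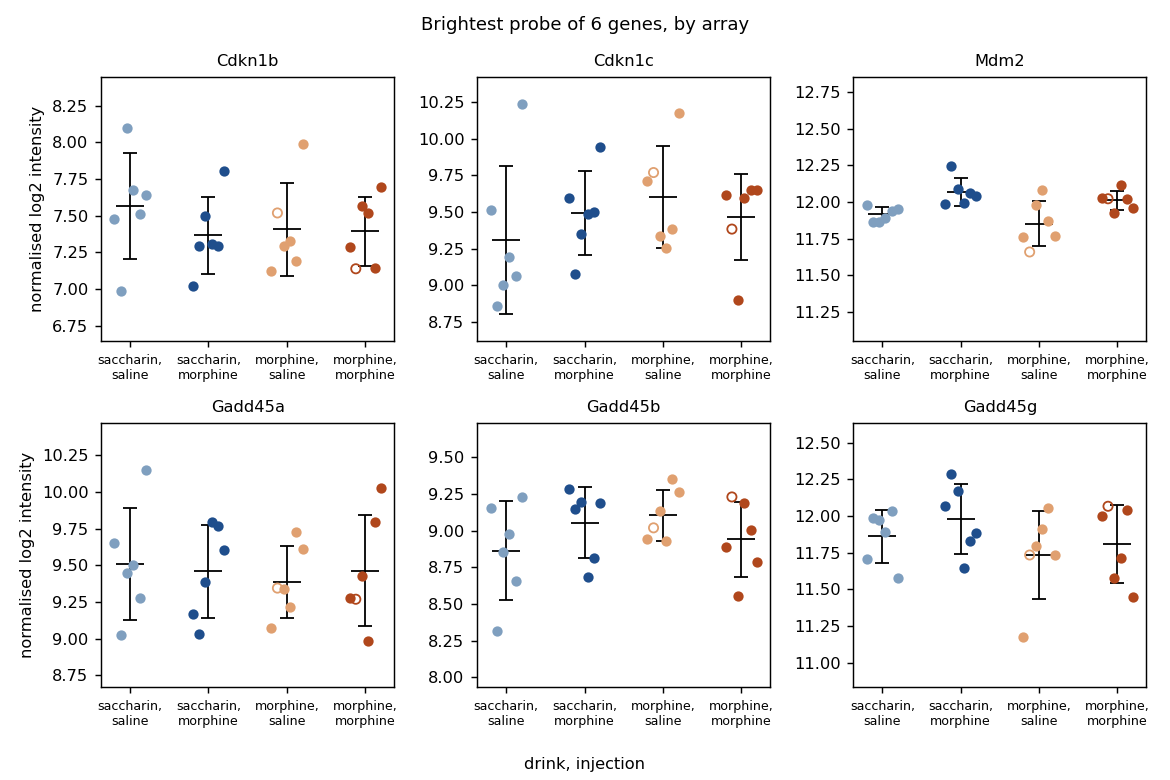
Normalised log2 intensity of the brightest probe of Cdkn1b, Cdkn1c, Mdm2, Gadd45a, Gadd45b and Gadd45g on each of 24 arrays (6 a group; bars are mean ± SD; open circles are the 2 chip 2 arrays low in medium spiny genes). All panels span the same number of log2 units; groups overlap except for Mdm2 in saccharin drinkers.

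The 3 Gadd45 genes, which are induced by DNA damage and, in neurons, by activity, did not pass in any comparison. Gadd45a had medians of 9.47 after saline and 9.50 after morphine in saccharin drinkers, within ranges of 9.02 to 10.15 and 9.03 to 9.80. In morphine drinkers the medians were 9.34 and 9.35, within 9.07 to 9.72 and 8.99 to 10.02. The injection differences were -0.05 (95% interval -0.36 to 0.26) and 0.08 (-0.23 to 0.39, limma adjusted p = 0.997), the latter 0.11 without replicates 31 and 32. The sign in saccharin drinkers was not stable: it was positive in 5 of 30 leave-outs (highest 0.05, without chip 6) and with the mean of both probes (0.03). Its second probe, which followed the first over the arrays (r = 0.78), gave 0.12 and 0.28 (95% interval -0.08 to 0.64, adjusted p = 0.890 over the probes).

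Gadd45b, the member tied most closely to activity-dependent demethylation in neurons, ran from 8.31 to 9.23 after saline (median 8.91) and from 8.68 to 9.28 after morphine (median 9.17) in saccharin drinkers. The morphine drinkers ran from 8.93 to 9.35 (median 9.08) and from 8.55 to 9.23 (median 8.95). The groups overlapped in both drinkers. The differences had opposite signs, 0.19 (95% interval -0.14 to 0.52) and -0.16 (-0.50 to 0.17, limma adjusted p = 0.939), and the interaction was -0.35 (-0.82 to 0.12, adjusted p = 0.958). The latter 2 were -0.24 and -0.43 without replicates 31 and 32. Its second probe was below the filter.

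Gadd45g ran from 11.58 to 12.03 after saline (median 11.93) and from 11.65 to 12.29 after morphine (median 11.98) in saccharin drinkers. In the morphine drinkers the range was 11.18 to 12.06 (median 11.77) and from 11.45 to 12.07 (median 11.86). The differences were 0.12 (95% interval -0.16 to 0.40) and 0.07 (-0.21 to 0.36, limma adjusted p = 0.996), and its second probe, which followed the first (r = 0.88), gave 0.16 and 0.13. Without replicates 31 and 32 the values in morphine drinkers were 0.02 and 0.09. Over the 3 Gadd45 genes and both injection comparisons, the highest upper bound of an interval of a brightest probe was 0.52, that of Gadd45b in saccharin drinkers.

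Mdm2 gave small positive differences in both kinds of drinkers. After saline the saccharin drinkers ran from 11.86 to 11.98 (median 11.91), and after morphine from 11.98 to 12.24 (median 12.05). The groups only just failed to touch (highest 11.9797 after saline, lowest 11.9845 after morphine). Such non-overlap was found for 0.466% of 13748 genes in that comparison. In morphine drinkers the values were 11.66 to 12.08 (median 11.82) and 11.93 to 12.11 (median 12.02), and these groups overlapped. The difference was 0.15 (SE 0.0748, 1.11-fold, higher on 6 of 6 chips) in saccharin drinkers and 0.16 (SE 0.0748, 95% interval 0.00 to 0.32, higher on 5 of 6 chips) in morphine drinkers. The latter had a limma adjusted p of 0.776 and was 0.12 without replicates 31 and 32. The second probe gave 0.17 (SE 0.114) and 0.11 (SE 0.114, adjusted p = 0.960 over the probes) but followed the first weakly (r = 0.19), and probe 3 was below the filter. On the second probe the saccharin drinkers overlapped (11.27 to 11.78 after saline, 11.48 to 11.85 after morphine).

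Over the 24 arrays, with chip means removed, Mdm2 had a Pearson r of 0.60 with Cdkn1a, Gadd45g 0.43, Gadd45a 0.13, Gadd45b -0.02, Cdkn1c -0.03 and Cdkn1b -0.32. With group means also removed, so that only differences between arrays of 1 group remain, Mdm2 had r of -0.01 and Gadd45g 0.24. The 4 arrays of a chip share it, and replicates 31 and 32, which differ in markers, are included, so these values are a description.

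Around these genes, 8 lists with 138 entries were examined, of which 118 were tested genes. In saccharin drinkers 3 of them passed, all of them higher after morphine, where 0.298% of all genes were higher. The lists were drawn up with earlier results of these data known. The count and the adjusted p of these 3 genes in saccharin drinkers are therefore a description. In morphine drinkers, in the drinking comparisons and in the interaction none of the 118 passed. Of the p53 target genes, 27 of 30 were tested, 2 rose and 0 fell. Their median log2 difference was 0.07 against -0.01 for all genes. In morphine drinkers their median was 0.00, as for all genes (0.00). The 2 also passed without replicates 31 and 32, which are not saccharin drinkers, so the differences themselves could not change.

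The 2 p53 targets that rose were Trp53inp1, a stress protein that assists p53 and autophagy, and Sesn1, a sestrin that lowers mTORC1 signalling. Trp53inp1 ran from 9.54 to 9.88 after saline (median 9.68) and from 10.13 to 10.62 after morphine (median 10.39) in saccharin drinkers, with no overlap. The log2 difference was 0.67 (SE 0.115, limma adjusted p = 0.0113, higher on 6 of 6 chips). In morphine drinkers it ran from 9.27 to 9.74 (median 9.59) and from 9.48 to 10.21 (median 10.10), a difference of 0.47 (SE 0.115, adjusted p = 0.217, higher on 5 of 6 chips). Without replicates 31 and 32 that difference was 0.57 (adjusted p = 0.0555). Over the 30 leave-outs it ran from 0.40 to 0.58 (adjusted p from 0.0280 to 0.659). It passed in 1 of them, without replicate 31. With array weights it was 0.48 (adjusted p = 0.0301). A dimmer second probe gave 0.25 and 0.18 in saccharin and morphine drinkers.

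Sesn1 ran from 11.91 to 12.06 after saline (median 11.99) and from 12.08 to 12.77 after morphine (median 12.34) in saccharin drinkers, again without overlap. The difference was 0.39 (SE 0.0732, limma adjusted p = 0.0219, higher on 6 of 6 chips). In morphine drinkers it ran from 11.85 to 12.11 (median 11.98) and from 12.13 to 12.39 (median 12.30), a difference of 0.27 (SE 0.0732, adjusted p = 0.309, higher on 6 of 6 chips) between groups that did not overlap. That was found for 0.255% of genes. It was 0.24 (adjusted p = 0.476) without replicates 31 and 32. A second Sesn1 probe gave 0.39 in saccharin and 0.25 in morphine drinkers, and a further one gave -0.03 and -0.14, so the probes disagree.

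The other list gene that rose was Ddit4 (REDD1), which also lowers mTORC1 signalling and is induced by stress, hypoxia and glucocorticoids. It ran from 10.21 to 11.05 after saline (median 10.78) and from 11.33 to 12.15 after morphine (median 11.59) in saccharin drinkers, a difference of 0.92 (SE 0.182, limma adjusted p = 0.0306, higher on 6 of 6 chips). Morphine drinkers ran from 10.08 to 10.89 (median 10.68) and from 10.80 to 11.47 (median 11.10), a difference of 0.50 (SE 0.182, adjusted p = 0.614), or 0.45 without replicates 31 and 32.

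These 3 calls were close to the threshold. Trp53inp1 did not pass without chip 1, 3, 5 or 6 (adjusted p of 0.0536 to 0.110). Sesn1 did not pass in 11 of 30 leave-outs (0.0555 to 0.164), namely without saccharin-saline replicate 1, 3, 5 or 10, without saccharin-morphine replicate 7 or 11, and without chip 1, 3, 4, 5 or 6. Ddit4 did not pass in 16 of 30 (0.0550 to 0.150), namely without saccharin-saline replicate 1, 3, 5, 8 or 10, without saccharin-morphine replicate 4, 6, 9, 11 or 12, and without any 1 of the 6 chips. With scaling to a common median none of the 3 passed (adjusted p of 0.499, 0.976 and 0.499), and with the mean of the probes of a gene neither Trp53inp1 (0.46, adjusted p = 0.152) nor Sesn1 (0.25, adjusted p = 0.163) passed. With chip position as a further term, Sesn1 (adjusted p = 0.0883) and Ddit4 (adjusted p = 0.115) did not pass, nor did Sesn1 without a chip term (adjusted p = 0.0753).

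**Figure D4:**
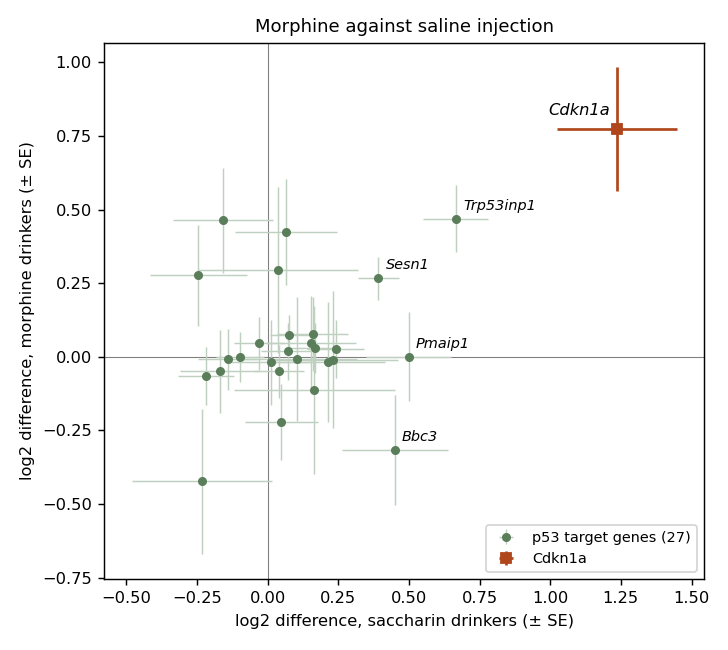
Log2 difference between morphine and saline injection in saccharin drinkers (x) and morphine drinkers (y) for 27 p53 target genes and Cdkn1a; lines are ± 1 SE. Cdkn1a lies at 1.24 and 0.77, and the 2 targets that passed in saccharin drinkers, Trp53inp1 (0.67 and 0.47) and Sesn1 (0.39 and 0.27), are positive on both axes; Bbc3 (0.45 and -0.32) and Pmaip1 (0.50 and 0.00) are marked because, after Trp53inp1, their values in saccharin drinkers were the largest of the 27, a choice made after their values were seen.

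The apoptosis genes among the p53 targets did not pass. Pmaip1 (Noxa) had a difference of 0.50 (SE 0.151, limma adjusted p = 0.320) and Bbc3 (Puma) 0.45 (SE 0.187, adjusted p = 0.602) in saccharin drinkers. Both are named after their values were seen. The other lists gave no further call in any comparison. In saccharin drinkers the median difference was -0.03 for 5 other inhibitors of cyclin-dependent kinases, -0.03 for 19 cyclins, kinases and pocket proteins, and 0.00 for 17 regulators of p53. It was 0.07 for 12 other growth arrest and DNA damage genes, of which Ddit4 passed, -0.03 for 14 Gadd45 partners in stress kinase signalling and demethylation, and 0.05 for 14 FoxO, Smad and other regulators of these inhibitors. For 10 genes of dividing cells and neuroblasts it was -0.04, and 0.04 in morphine drinkers.

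The genes whose pattern over the 24 arrays was most like Cdkn1a, by Pearson correlation with chip means removed among 13747 genes, were Angptl4 (r = 0.920, rho 0.889), Trp53inp1 (0.881), Klf9 (0.879), Wfdc1 (0.879), Pdk4 (0.874), Camk1g (0.873), Sgk1 (0.872), Pglyrp1 (0.868), Sult1a1 (0.867) and Slc2a1 (0.861). The next gene had r of 0.849. Without replicates 31 and 32 the 10 values ran from 0.833 to 0.913. All 10 were higher after morphine in both kinds of drinkers: Angptl4 by 1.08 and 0.60, Sgk1 by 1.19 and 0.64, Sult1a1 by 1.07 and 0.92, and Klf9 by 0.47 and 0.33. The correlation includes the group differences, so the 8 of 10 that passed in saccharin drinkers and the 1 of 10 (Sult1a1) in morphine drinkers are a description. With group means also removed, the 5 most alike were Pikfyve (0.812), Zfp46 (0.799), Rbm26 (0.798), Slco4a1 (0.788) and Adssl1 (0.771), and none of the first 10 was among them. These 5 values include replicates 31 and 32, and their part in them was not tested.

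Differences between injections were averaged over each set of cell type markers, and those of single genes can cancel in such a mean. The mean difference in saccharin and in morphine drinkers was 0.04 and 0.11 for 8 astrocyte genes, -0.12 and -0.01 for 8 oligodendrocyte genes, -0.07 and -0.13 for 7 microglial genes, and 0.04 and -0.13 for 7 endothelial genes. It was 0.18 and -0.01 for 8 genes of medium spiny neurons and 0.15 and -0.25 for 4 genes of cortical projection neurons. Blood (3 genes) gave 0.28 and -0.32, and choroid plexus and ependyma (5 genes) 0.28 and -0.09. Without replicates 31 and 32 the values in morphine drinkers were 0.15 (astrocytes), -0.01 (oligodendrocytes), -0.01 (microglia), -0.07 (endothelium), 0.01 (medium spiny neurons), -0.34 (cortical neurons), -0.28 (blood) and 0.02 (choroid plexus and ependyma). Of single marker genes, 1 astrocyte gene and 1 oligodendrocyte gene passed in an injection comparison, and none of the other sets did. In these comparisons 0.371% (saccharin drinkers) and 0.0655% (morphine drinkers) of 13748 genes passed. The part of cell makeup in the Cdkn1a difference was not tested. In bulk tissue, fewer cells of a type and less RNA per cell cannot be told apart.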

How the data were processed

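Striatal RNA of 24 mice was measured on Illumina beadchips. The authors deposited linear probe intensity without normalization between arrays. The sources used here do not give whether background had been subtracted. A deposited table of log2 values by the authors had column medians of 8.05 to 8.06. Its values ranked the probes as the intensities did, were not centred, and lay within 0.0351 of quantile-normalized log2 intensity without a background step. This table was an alternative.

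Intensities were corrected by normexp with an offset of 50 and their log2 values quantile-normalized, with limma 3.58.1 (R 4.3.3). Probes with 1 symbol (34885 of 45281; 18 had several and 10378 none) and a mean above the 40th percentile, a log2 intensity of 7.05, were kept. The brightest probe stood for its gene, which gave 13748 genes, and the 22499 probes were also fitted singly. Of the 16 probes of the listed genes 13 passed the filter, which uses the mean over all arrays. Symbols were those of the platform annotation, and positions and promoters are from RefSeq (GRCm38.p6).

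The limma model (lmFit, eBayes) took all 24 arrays with fixed terms for group and for chip. P-values are two-sided and adjusted by Benjamini-Hochberg over all genes or probes, with a threshold of 0.05. The number of arrays limits the precision (median SE 0.142 between 2 groups). The fit was tested on simulated data. Each array is 1 animal per the labels.

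The genes, lists and tests were chosen with earlier results of these data known. Named were all members, up to 4 passing genes per list and comparison, the 10 genes most like Cdkn1a over the arrays and the 5 most like it with groups removed. Alternatives covered background, scaling, the authors' values, filter, probes per gene, chip terms, which groups entered, weighting of arrays, the eBayes prior, and single arrays or chips left out. For the 3 list genes that passed, they were chosen after seeing the data. Figures used matplotlib 3.10.9.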

Additional observations from a re-analysis of the deposited data

Results flagged for a closer look

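In 3 of 64 groups of 6 arrays, counted over the 16 probes, 1 array stood apart from the other 5 by Dixon's criterion, which chance meets in about 1 group in 20. The single Cdkn1c probe was at 8.90 on 1 array of morphine drinkers given morphine (replicate 34, chip 3), against 9.38 on the next lowest. Gadd45g was at 11.18 on its brighter probe on 1 array of morphine drinkers given saline (replicate 30, chip 1), against 11.73, and at 8.67 on its other probe on 1 array of saccharin drinkers given saline (replicate 10, chip 2), against 9.15. No array of the 3 Cdkn1a probes stood apart in this way. The causes were not tested.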

How the results depend on the processing

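By replicate number, no paired analysis was possible because the groups share none in the labels; arrays were instead compared within chips, each of which holds 1 array of every group, with chip as a term of the fit. Over 46 alternatives, the count of members that passed in saccharin drinkers went from 1 to 0 without a chip term (28 genes passed in all) and with only the 2 groups in the fit (10 genes), and was 0 to 1 over the arrays and chips left out; fewer arrays enter 2 of these 3. In morphine drinkers it went from 0 to 1 with array weights (63 genes passed in all), where Cdkn1a was at 0.83; the cause was not tested. Cdkn1a kept its sign in every comparison and alternative, at 0.65 to 0.92 in morphine drinkers (adjusted p 0.0475 to 0.900). Values near 0 changed sign, with the cause not tested. With the mean of the probes, the injection difference of Cdkn1b in morphine drinkers was 0.36, that of Gadd45a in saccharin drinkers 0.034 and the interaction of Mdm2 -0.028. Without replicates 31 and 32, Cdkn1b was 0.059 in that comparison, the drinking difference under morphine was -0.047 for Gadd45a, that averaged over injections was -0.000727 for Gadd45b, and the Mdm2 interaction was -0.035. With array weights, the drinking difference of Cdkn1b under morphine was -0.014 and the injection difference of Gadd45g in morphine drinkers -0.016. With scaling to a common median, which set the interaction of all genes to a median of 0.10, that of Gadd45g was 0.080, and the drinking difference under morphine was 0.044 for Cdkn1c and 0.064 for Mdm2. With cyclic loess it was -0.018 for Gadd45a, and the Mdm2 interaction was -0.00178. Over the arrays and chips left out, signs changed for Cdkn1b in morphine drinkers (-0.093 to 0.069) and between drinks under morphine (-0.025 to 0.060), Cdkn1c between drinks under morphine (-0.094 to 0.066), Gadd45a in saccharin drinkers (-0.162 to 0.049), between drinks under morphine (-0.078 to 0.167), averaged (-0.127 to 0.038) and in the interaction (-0.037 to 0.259), Gadd45b averaged (-0.011 to 0.139), Gadd45g in morphine drinkers (-0.075 to 0.146) and in the interaction (-0.166 to 0.063), and Mdm2 in the interaction (-0.046 to 0.062). In all, 30 of 42 member results never changed sign. Dim probes near the filter, such as those of Cdkn1b, limit what these arrays show.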
